A study of Panagrellus redivivus with 189 samples.

Results

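Single blastomeres of 1 embryo at the 20-cell stage were set beside single blastomeres of 1 early gastrula embryo of the free-living nematode *Panagrellus redivivus*. Of 17 libraries labelled 20 cell, 12 were used, and of 33 libraries labelled early gastrula, 29 were used, together 41 libraries or 21.7% of the blastomere libraries of the study. A library was kept when it held at least 2000 counts outside 6 feature rows, which take a large and uneven part of the counts in many libraries of the study. A minimum of 2000 counts left out 4 libraries of the 20-cell embryo (207 to 636 counts) and 4 of the early gastrula embryo (1190 to 1820 counts). The fifth 20-cell library left out, r17, has a leading digit in its title whose meaning the labels do not give.

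The study took embryos apart by hand after the egg shell was removed and froze each blastomere by itself. RNA was amplified and sequenced by CEL-Seq2, a single-cell method that tags the transcripts of each cell with its own barcode and counts their 3′ ends. Neither stage carried a treatment or a mutation, the labels give no strain or age in time, and the cells bear only a number (r1, r3 and so on) in place of a lineage name. All cells of 1 embryo shared 1 sequencing library, so stage, embryo and sequencing library cannot be told apart.

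A nematode egg starts with RNA laid down by the mother. During cleavage this store is broken down while the embryo's own genome is switched on, and the blastomeres become founder cells with different fates. At gastrulation cells move from the surface to the inside, beginning in *Caenorhabditis elegans* with the daughters of the gut founder cell. The count table of this study gives its features by row only, with no gene identifier, so each feature is named here by its row number (row_1269 and so on) and no function is given.

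The 12 libraries of the 20-cell embryo held 2767 to 10705 counts outside the 6 rows (median 8785.5, 94538 in all), and the 29 early gastrula libraries held 2209 to 15510 (median 3889, 141461 in all). Levels are in CPM, the count scaled to 1000000 over these rows. They are relative, and a smaller amount of one RNA cannot be told from a larger amount of the others or from fewer cells that hold it. A floor of 3 counts over an embryo corresponds to 31.7 CPM at 20 cells and 21.2 CPM in the early gastrula. With 1 embryo on each side no test between stages was made and no p-value is given. Ratios of summed counts carry an exact 95% interval, which covers counting error only, and not the spread between embryos.

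Some features of the early gastrula embryo had no or few counts at 20 cells, and some that every 20-cell library held had no or few counts in the early gastrula. Of 438 features with at least 30 counts in at least one of both embryos, 16 (3.65%) were at least 4-fold higher in the early gastrula and 43 (9.82%) were at least 4-fold lower, together 13.5%. The median feature was lower in the early gastrula by 0.31 on the log2 scale. Scaling by the median of ratios, which sets this median to 0, gave 24 features higher and 35 lower, and TMM scaling gave 26 and 35. All 16 higher features stayed among the higher ones under both of these scalings. The 35 lower features were all among the 43. The split between higher and lower therefore depends on the scaling (27.1% of the called features higher by total counts, 40.7% by the median of ratios and 42.6% by TMM).

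**Figure D1:**
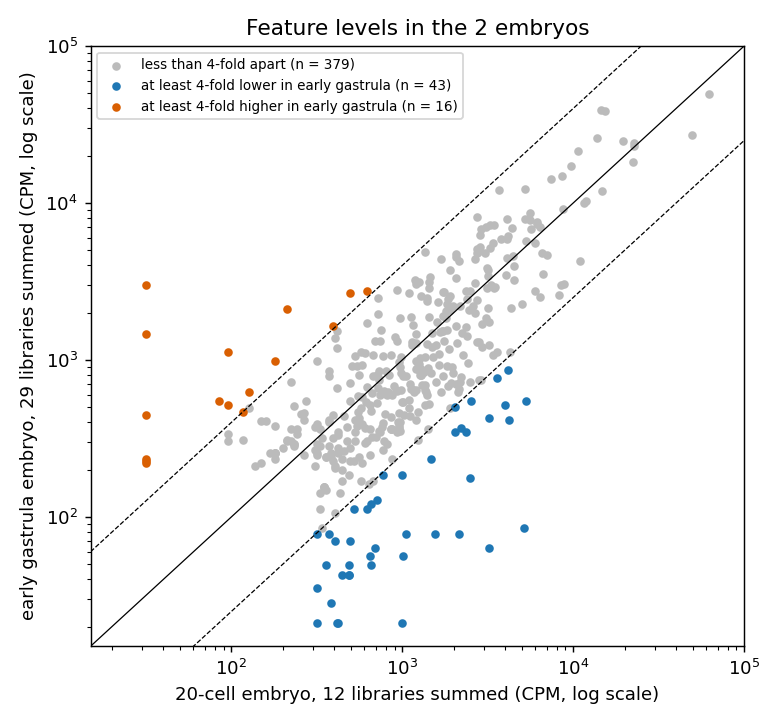
Level of each of the 438 features in the 20-cell embryo (x axis, 12 libraries summed) and in the early gastrula embryo (y axis, 29 libraries summed), both in CPM on log scales, with values under 3 counts drawn at the level of 3 counts. The solid line marks equal levels and the dashed lines 4-fold differences, and 16 features lie above the upper line and 43 below the lower one.

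The feature with the largest ratio upward was row_352. It had no count in any of the 12 libraries at 20 cells. In the early gastrula it had 427 counts and was present in all 29 libraries, from 738.4 CPM (r14) to 8158 CPM (r24), with a median of 2967 CPM. The embryos did not overlap, and against the floor of 3 counts the summed level was at least 95.1-fold higher in the early gastrula. The exact interval of that ratio began at 77-fold. Feature row_352 was low in the embryos of earlier stages too, with 12.0 to 79.1 CPM in 8-cell embryos 2, 4 and 5 and 32.0 CPM in 12-cell embryo 2. It stood at 6317 CPM in the late gastrula embryo.

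Feature row_585 was also without a count in the 20-cell embryo. The early gastrula had 208 counts of it in 27 of 29 libraries, at least 46.3-fold higher against the floor, with an exact interval from 37.3-fold upward. Its cells were very unequal: library r9 held 15869 CPM and r4 held 9203 CPM, while the median library held 659.4 CPM and r1 and r8 had none. Leaving out r9 brought the log2 ratio from 5.53 to 5.04, and leaving out r4 brought it to 5.08. The 12-cell embryo 2 had no count of row_585, and the late gastrula embryo stood at 635.97 CPM.

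Feature row_563, also broadly present in the early gastrula, had 2 counts at 20 cells and 63 in 23 early gastrula libraries, 21.1-fold higher (interval 5.59 to 177.6). Its summed level in the early gastrula was 445.4 CPM. Earlier embryos held 39.6 to 516.7 CPM of it (8-cell embryos 2, 4 and 5) and 181.5 CPM (12-cell embryo 2). The call was lost among libraries of at least 5000 counts, which held under 30 counts of it (log2 ratio 3.24). It was also lost with libraries thinned to 2000 counts (1.84). Feature row_359 had 9 counts in 4 libraries at 20 cells, the highest of them 873.5 CPM in r9, and was in 28 libraries of the early gastrula (1117 CPM against 95.2 CPM summed), 11.7-fold higher (interval 6.03 to 26.1). Single libraries moved it. The log2 ratio of row_359, 3.55 as reported, was 4.63 without r9 of the 20-cell embryo. Without r22 of the early gastrula, which held 58 of its counts, the ratio was 3.06. Levels of row_359 were 12.0 to 479.8 CPM in 8-cell embryos 2, 4 and 5 and 309.7 CPM in 12-cell embryo 2. At 20 cells row_173 was found in r8 (1935 CPM) and r1 (170.6 CPM) and in none of the other 10 libraries. In the early gastrula all 29 libraries had it, from 539.5 to 5661 CPM with a median of 2324 CPM, and the summed level was 9.92-fold higher (interval 6.31 to 16.5). Without r8 the log2 ratio of row_173 went from 3.31 to 5.89, so a single library set most of its level among the 12 used. Library r17 of the 20-cell embryo, left out for its title, held 30 counts of row_173 (699.2 CPM). With r17 kept the log2 ratio of row_173 was 2.53. Feature row_1467 had 1 count at 20 cells, in r11, and 33 counts in 17 early gastrula libraries (22.1-fold, interval 3.69 to 897.1). This difference rests on the choice of libraries, since r17 held 37 counts of row_1467, and with r17 kept the log2 ratio was -0.25. In 12-cell embryo 2 row_1467 stood at 683.4 CPM, and in 8-cell embryos 2, 4 and 5 at 180.4 to 474.8 CPM. The early gastrula level of row_1467 was 233.3 CPM.

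Other members of the higher set were already found in most 20-cell libraries and were higher again in the early gastrula. Feature row_569 went from 59 counts in 11 libraries to 386 counts in all 29 (4.37-fold, interval 3.32 to 5.85). Its counts were uneven in both embryos. At 20 cells r13 held 2553 CPM and r14 1876 CPM of it, against a median of 268.9 CPM. In the early gastrula r4 held 71 of its counts (10210 CPM), against a median of 2377 CPM. Feature row_1422 went from 47 counts in 10 libraries to 377 counts in all 29 (5.36-fold, interval 3.95 to 7.42), with 1029 to 4946 CPM per early gastrula library. Feature row_168 went from 37 counts in 10 libraries to 233 in all 29 (4.21-fold, interval 2.97 to 6.13). The 5 features found in every early gastrula library were thus row_168, row_173, row_352, row_569 and row_1422. Feature row_118 was the one higher feature found in under 50% of the early gastrula libraries. It had 31 counts in 9 of them, up to 1485 CPM in r1, against 1 count at 20 cells (20.7-fold, interval 3.45 to 844.3). Leaving out any one of the early gastrula libraries r1, r3, r19, r22, r30 or r31 ended the call of row_118, with log2 ratios of 2.52 to 2.81 against 2.79, and thinning all libraries to 2000 counts gave 0.31.

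The lower set was led by features that every 20-cell library held. Feature row_1269 had 487 counts at 20 cells and 12 in the early gastrula, 60.7-fold lower there (interval 34.4 to 118.3), or 5151 CPM against 84.8 CPM. At 20 cells its lowest library was r1 (853.2 CPM), the median was 2648 CPM and r8 was far above the others at 26377 CPM. The early gastrula had it in 7 of 29 libraries, none above 595.9 CPM, so the embryos did not overlap. Leaving out r8 brought the log2 ratio from -5.92 to -4.99. Earlier embryos held more of row_1269, with 10297 to 37758 CPM in 8-cell embryos 2, 4 and 5 and 23311 CPM in 12-cell embryo 2, and the late gastrula held 18.5 CPM.

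Feature row_831 was in all 12 libraries at 20 cells, from 698.8 CPM (r9) to 6925 CPM (r8) with a median of 2541 CPM. In the early gastrula 9 counts were spread over 6 libraries, the highest at 659.4 CPM, and the level was 50.4-fold lower (interval 26.2 to 111.2). The 20-cell and early gastrula libraries again did not overlap. Feature row_541 was in all 12 libraries as well, from 110.5 CPM (r3) to 3134 CPM (r16), and had no count in the early gastrula, so it was at least 46.9-fold lower against the floor, with an exact interval from 37.4-fold upward. The late gastrula embryo held 4 counts of row_541 (10.6 CPM).

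The other named features of the lower set overlapped between the embryos. Feature row_41 had 203 counts at 20 cells, 10490 CPM of it in r8 and 4103 CPM in r14, and 11 counts in the early gastrula, 27.6-fold lower (interval 15.1 to 56.2). Without r8 its log2 ratio went from -4.79 to -3.92. Feature row_928 had a summed level of 1555 CPM at 20 cells, and r15 (7006 CPM) and r16 (8149 CPM) stood far above the median of 467.1 CPM. It was 20.0-fold lower in the early gastrula (interval 10.9 to 40.9) and had a log2 ratio of -4.32, which became -3.47 without r15 and -3.95 without r16. Unlike row_1269, row_831 and row_41, row_928 was low in 12-cell embryo 2 (224.2 CPM). It was not low in all earlier embryos, with 1148 CPM in the 9-cell and 1118 CPM in the 10-cell embryo. Feature row_232 had 39 counts in 11 libraries at 20 cells and 3 counts in the early gastrula (19.5-fold lower, interval 6.18 to 98.4).

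**Figure D2:**
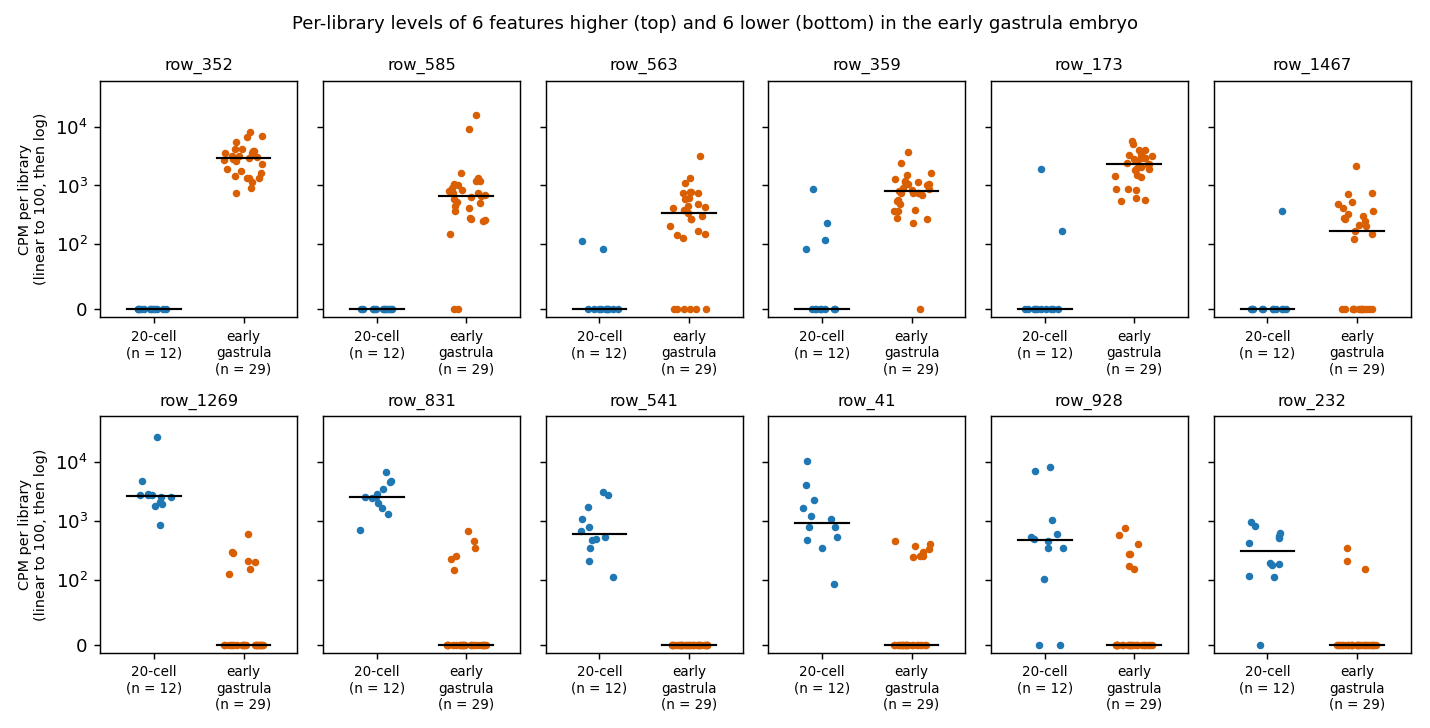
Level of the 6 broadly present features with the largest ratio upward (top) and downward (bottom) in each of the 12 libraries of the 20-cell embryo and the 29 of the early gastrula embryo, in CPM on an axis that is linear up to 100 and logarithmic above. Each point is 1 library and the bar is the median. Features row_352, row_1269, row_831 and row_541 show no overlap between the embryos, and single libraries stand far above the rest in row_585, row_1269 and row_928.

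Features of the lower set found in a minority of the 20-cell cells were row_488 and row_486. Feature row_488 had 40 counts in 5 libraries, with 3378 CPM in r7, and 2 counts in the early gastrula (29.9-fold lower, interval 7.76 to 255.6). Feature row_486 had 30 counts in 5 libraries, with 2639 CPM in r7, and no count in the early gastrula (at least 14.96-fold lower against the floor, with an exact interval from 11.4-fold upward). Both calls rest on r7: without it the log2 ratio of row_488 was -2.15, that of row_486 was -1.47, and neither feature kept 30 counts. In 8-cell embryos 2, 4 and 5 row_488 held 493.2 to 5255 CPM and row_486 held 144.4 to 6616 CPM. The difference of row_486 (log2 ratio -3.90) was smaller than that 8-cell range (5.52 on the log2 scale).

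Beyond the named features, the lower set held several that were plentiful at 20 cells and stayed measurable in the early gastrula. Feature row_1133 went from 5278 to 544.3 CPM (9.70-fold, interval 7.62 to 12.5), row_539 from 4136 to 862.4 CPM (4.80-fold, interval 3.90 to 5.93) and row_40 from 4221 to 417.1 CPM (10.1-fold, interval 7.68 to 13.5). The 77 counts of row_1133 in the early gastrula were uneven, with 21 in r14, 19 in r22, 15 in r30 and 9 in r31 (83.1% of the total together), and 9 other libraries held 1 to 3 each. Libraries r14, r22, r30 and r31 were also the deepest of that embryo. They held 913.5 to 2584 CPM of row_1133, against at most 739.9 CPM (r29) in the others. The part of depth in this was not tested. Of the 43 lower features, 22 were found in all 12 libraries at 20 cells. Of the 16 higher ones, none was. The call itself favours this contrast, since a lower feature needs at least 30 counts at 20 cells. Nothing is read from it.

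Features without any overlap between the embryos were few. In 6 of 438 features (1.37%) every early gastrula library lay above every 20-cell library, and in 5 (1.14%) every one lay below. With 12 and 29 libraries from a single embryo each, this describes the cells of these embryos and not the stages. Among the 6, row_352 alone was past 4-fold, and the others were features of large counts with 2-fold to 4-fold ratios. Feature row_434 held 2342 to 27105 CPM in the 20-cell libraries and 29658 to 49875 CPM in those of the early gastrula (2.69-fold, interval 2.54 to 2.86). Feature row_433 held 3361 to 24937 CPM and 25165 to 52649 CPM (2.50-fold, interval 2.36 to 2.65). Features row_429, row_557 and row_313 had log2 ratios of 1.14, 1.71 and 1.86. The 5 that lay below were row_1269, row_831, row_541, row_40 and row_944.

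Steady features give the other end of the scale. Among the 4 named as steady, row_459 held 22679 CPM at 20 cells and 22989 CPM in the early gastrula (1.01-fold, interval 0.96 to 1.07). Feature row_619 held 22510 and 24035 CPM. Features row_702 and row_215 were lower by 0.29 on the log2 scale, which is close to the shift of the median feature, and both came out at 0.02 by the median of ratios and at 0.08 by TMM. Relative to that median, row_459 and row_619 lay above the bulk of features.

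The levels of the called features in other embryos place this pair in the course of the series. The 43 lower features ranged from 10.7 to 23311 CPM in 12-cell embryo 2, from 317.3 to 5278 CPM at 20 cells, from 0 to 862.4 CPM in the early gastrula and from 0 to 662.5 CPM in the late gastrula. Some of them were not high at 12 cells, though row_928 among these held 1148 and 1118 CPM in the 9-cell and 10-cell embryos. Features row_776, row_722, row_926, row_928, row_1566 and row_210 held 10.7 to 224.2 CPM at 12 cells, and 317.3 to 1555 CPM at 20 cells. Of these, row_1566 held 10.7 CPM at 12 cells, 38 counts at 20 cells, 10 counts in the early gastrula and 400.1 CPM in the late gastrula, and without r15 of the 20-cell embryo its log2 ratio went from -2.51 to -1.34, which ended the call. Feature row_1180 held 2691, 497.2, 70.7 and 551.2 CPM in that order. Without r8 its log2 ratio went from -2.81 to -2.23 and its call was lost. The 16 higher features ranged from 0 to 683.4 CPM at 12 cells, from 0 to 624.1 CPM at 20 cells, from 219.1 to 3018.5 CPM in the early gastrula and from 0 to 8697 CPM in the late gastrula. Feature row_466 was the one without a count in the late gastrula, after 226.2 CPM in the early gastrula, and row_569 was the highest there. These embryo pairs share samples with the main comparison, so the values are given side by side and no count of shared direction is drawn from them.

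A count of 4-fold differences needs the spread between embryos of one stage beside it. With all embryos thinned to 54187 counts, 13.2% of the features considered were past 4-fold between the 20-cell and the early gastrula embryo. Pairs of 8-cell embryos gave 15.2% (embryos 2 and 4), 8.45% (embryos 4 and 5) and 5.56% (embryos 2 and 5). The sums of 8-cell embryos 2, 4 and 5 hold 5, 6 and 3 used libraries, so they may also differ in which cells were sequenced. The part of this was not tested. Neighbouring stages gave 20.6% between 12-cell embryo 2 and the 20-cell embryo and 7.46% between the early and the late gastrula. The share for the 20-cell and early gastrula pair thus lay inside the range of embryos of the same stage, and a 4-fold difference by itself does not set a feature apart from the spread between 8-cell embryos. Measured feature by feature, 14 of the 16 higher features and 42 of the 43 lower ones differed by more than the whole range of 8-cell embryos 2, 4 and 5, beside 43.8% of the 438 features. That share is raised among called features by the call itself, since it reads the same difference, and nothing is read from it.

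To place each cell without using the comparison itself, lists were made from embryos outside it. Of 583 features considered between 12-cell embryo 2 and the late gastrula, 21.4% were at least 4-fold higher in the late gastrula (late list) and 14.1% (82 features) at least 4-fold lower (early list). The late list took 17.3% of the counts of the 20-cell embryo and 24.7% of those of the early gastrula, and the early list 10.9% and 3.03%. Per library, the log2 ratio of late-list to early-list counts had a median of 1.00 at 20 cells, from -1.04 (r8) to 1.51 (r15). In the early gastrula the median was 3.03, from 2.58 to 3.78. The 20-cell and early gastrula libraries did not overlap. Both embryos lay between 12-cell embryo 2 (median -3.23, 9 libraries) and the late gastrula (median 4.15, 38 libraries). The lists were chosen from those outer embryos, which sets them at the ends, so nothing is read from lying between them. Like r17, 21 of the late gastrula libraries have a leading digit in their titles, and these were kept. With lists made without them the medians were 0.96 at 20 cells and 3.13 in the early gastrula.

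**Figure D3:**
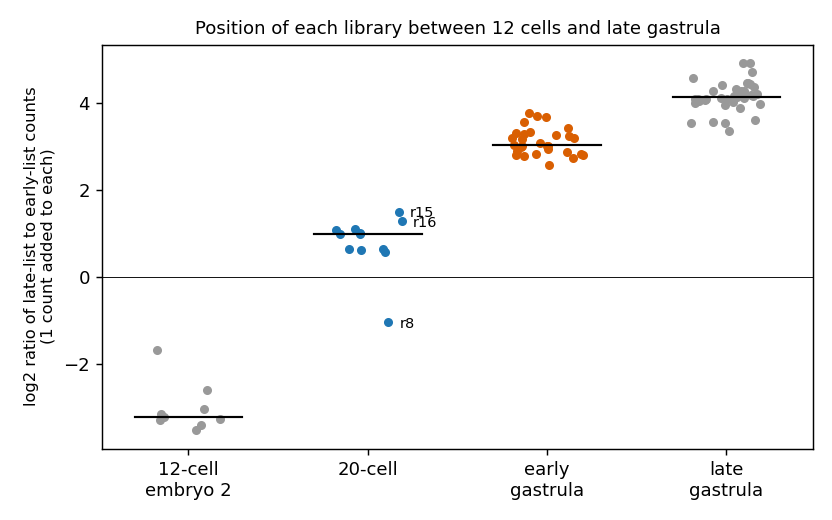
Log2 ratio of the counts in the late list to the counts in the early list (1 count added to each) for every library of 4 embryos, with bars at the medians. The 12 libraries of the 20-cell embryo lie between -1.04 and 1.51, the 29 of the early gastrula between 2.58 and 3.78, and library r8 lies below the other 20-cell libraries.

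The 2 lists met the called features unevenly. The early list held 33 of the 43 lower features, which is 76.7% of the lower set, and it held no higher feature. Of the early-list features, 60 were considered between these embryos, and 55% of them were lower, beside 9.82% of all features, the list included. The late list held 9 of the 16 higher features, 56.3% of the higher set, and 1 lower feature. Of the 87 late-list features considered, 10.3% were higher, beside 3.65% of all features, the list included. The median log2 ratio from 20 cells to early gastrula was -2.22 over the 60 early-list features considered and 0.52 over the 87 of the late list, beside -0.31 over all 438. Most of the late-list features considered thus differed by less than 4-fold, while those of the early list were lower by a larger median amount. The minimum count applies to the higher embryo. An early-list member with few early gastrula counts is therefore considered only through its 20-cell counts. This favours lower calls and a lower median, and its part was not tested. The shares of counts held by the whole lists use no such minimum. They were 10.9% at 20 cells and 3.03% in the early gastrula for the early list, and 17.3% and 24.7% for the late list.

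Within the 20-cell embryo the blastomeres were not alike. Library r8 stood apart from the other 11. Its early-list features took 24.0% of its counts, against 7.74% to 12.2% in the others, 1.77% to 4.2% in the early gastrula libraries and 25.0% to 33.3% in those of 12-cell embryo 2. Set against the sum of the other 11, r8 had 9 features at least 4-fold higher and 11 at least 4-fold lower, 13.6% of the features considered there. Library r15 followed with 8 higher and 6 lower (8.75%). The mean Spearman correlation with the other 20-cell libraries was lowest in r8 (0.563), r15 (0.571) and r16 (0.580), which lay close together. For r8 the mean Spearman correlation with the early gastrula libraries, 0.369, was the lowest of the 12, with r15 (0.458) next.

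The features that set r8 apart went both ways. Feature row_848 had 40 counts in r8 (4074 CPM) and none in the other 11 libraries used. Feature row_1223 had 28 of its 32 counts in r8 (2852 CPM), with the rest in r11 and r7. The left-out library r17 had 16 counts of row_848 (372.9 CPM) and 15 of row_1223 (349.6 CPM). Features row_1269 and row_41, of the lower set, reached 26377 and 10490 CPM in r8, and row_1133 reached 18128 CPM against 722.8 to 5490 CPM in the others. Features row_433 and row_434, among the features of the largest counts in the early gastrula, were lowest in r8, at 3361 and 2342 CPM against 5015 to 24937 CPM and 5138 to 27105 CPM in the other libraries. Feature row_1219 was at 203.7 CPM in r8 and at 1045 to 10135 CPM elsewhere. These features were named after their values in r8 had been seen.

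Features row_848 and row_1223 were spread thinly over the early gastrula. Feature row_848 had 47 counts in 11 of 29 libraries, with 10 in r22, 9 in r1 and 6 each in r28 and r29. Feature row_1223 had 45 counts in 15 libraries, with 10 in r30, 9 in r1 and 5 in r29. Both were found in 9 libraries, which is 81.8% of those with row_848 and 60% of those with row_1223. Between the embryos their summed levels had log2 ratios of -0.35 for row_848 and -0.09 for row_1223, which rest on r8: without it the ratios were 3.23 (against the floor of 3 counts, since the other 11 libraries had none) and 2.75.

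Libraries r15 and r16 were the most like each other of any partner either had (Spearman 0.687) and shared features that the other 20-cell libraries used had little of. Feature row_200 held 16534 CPM in r15 and 10029 CPM in r16, 722.8 CPM in r11, 105.6 CPM in r7 and no count in the other 8. It had the largest variance-to-mean ratio of the embryo, 24.9, where counting error alone gives about 1. Feature row_1518 held 8594 CPM in r15 and 1672 CPM in r16, and at most 211.1 CPM in the other libraries used. The left-out library r17 held 1748 CPM of row_200, 1375 CPM of row_1518 and 885.6 CPM of row_1258. Feature row_1258 followed row_200 most closely over the 12 libraries (Pearson 0.998, Spearman 0.937), at 4204 and 2716 CPM in r15 and r16. Next came row_759 (Pearson 0.984, Spearman 0.449) and row_928 (0.932 and 0.406), whose agreement with row_200 rests on r15 and r16. All points share 1 embryo and 1 sequencing library, and no p is given. Features row_433 and row_434 were low in r15 (7380 and 5138 CPM) and r16 (5015 and 5433 CPM), after r8 the lowest of the embryo.

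The summed level of row_200 came from few cells in both embryos. In the early gastrula 18 of 29 libraries had it, led by r26 at 13416 CPM, and the summed level there was 961.4 CPM against 2412 CPM at 20 cells, a log2 ratio of -1.33. Without r15 alone that ratio was 0.66, and the same omission took row_1518 from -1.34 to 1.50 and row_1258 from -0.47 to 1.22. The direction of these 3 features between the embryos therefore depends on 1 cell. Without r8, r15 and r16 together, 22 features were higher and 29 lower, of which 15 and 27 were among the 16 and 43.

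**Figure D4:**
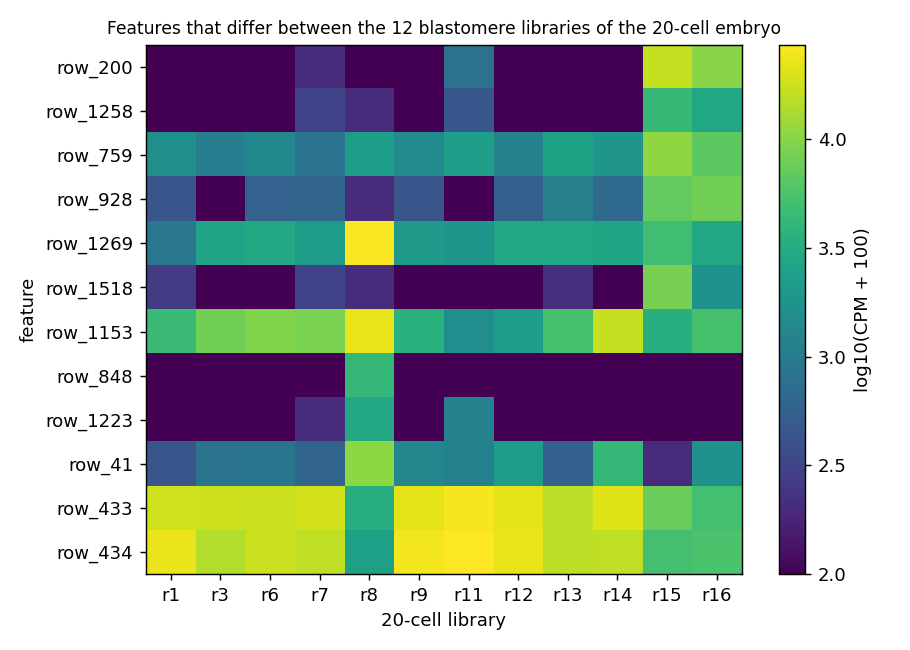
Level of 12 features (rows of the panel) in each of the 12 libraries of the 20-cell embryo (columns), as log10(CPM + 100), where dark blue is no count and yellow is the highest level. Feature row_848 is seen in r8 alone and row_200 mainly in r15 and r16, while row_433 and row_434 are lowest in r8, r15 and r16.

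The most variable feature of the early gastrula was row_671, which also took the largest number of counts in both embryos. Its per-library level ran from 13488 CPM (r23) to 93038 CPM (r30) with a median of 28025 CPM, a variance-to-mean ratio of 29.2. At 20 cells it ran from 33610 to 92396 CPM with a median of 60337 CPM and a ratio of 8.33. Features row_717, row_719 and row_718 followed it most closely over the 29 libraries, with Pearson correlations of 0.929, 0.917 and 0.90 and Spearman correlations of 0.829, 0.781 and 0.817. In the 12 libraries at 20 cells the Pearson correlations of the same rows with row_671 were 0.063, 0.213 and 0.642. Feature row_504, the fourth by variance-to-mean ratio, had a Pearson correlation of 0.832 with row_671 in the early gastrula and 0.351 at 20 cells.

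Library depth moved with these levels in the early gastrula. Over its 29 libraries the level of row_671 had a Pearson correlation of 0.811 and a Spearman correlation of 0.655 with the total count, and row_718 had 0.862 and 0.578. The 4 deepest libraries, r22, r31, r14 and r30, were also the 4 with the most of row_671, at 89233, 81202, 80113 and 93038 CPM. At 20 cells the correlation of row_671 with the total was 0.340 (Spearman 0.126). The part of depth in this spread was not tested. With all libraries thinned to 2000 counts row_671 had a log2 ratio of -0.68 between the embryos, against -0.33 for the sums, 0.04 by TMM and 0.21 among libraries of at least 5000 counts, so its direction between the embryos depends on the scaling and on how deep and shallow libraries are weighted.

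**Figure D5:**
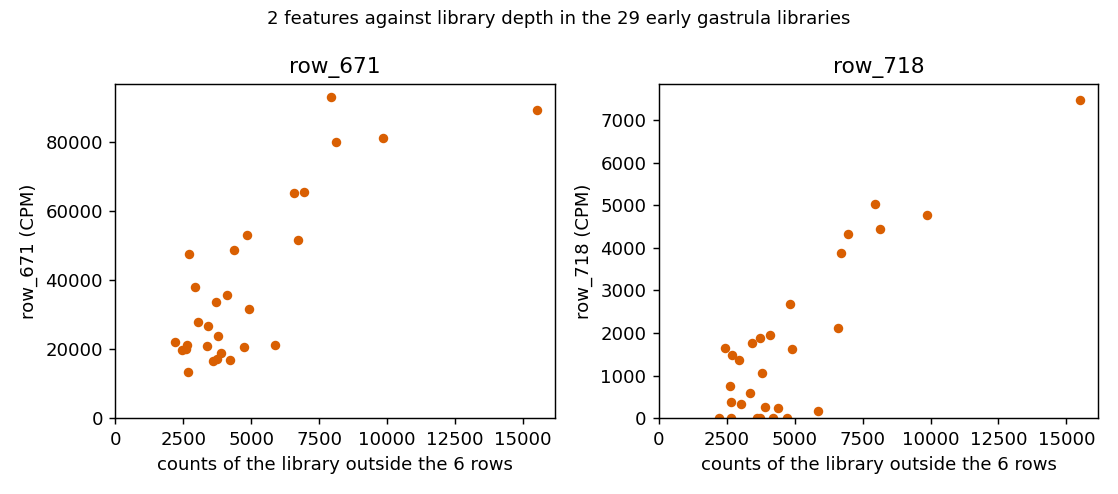
Level of row_671 (left) and row_718 (right) in CPM against the total count outside the 6 rows, for the 29 early gastrula libraries, 1 point each. Libraries with more counts had higher levels of both, with Pearson correlations of 0.811 and 0.862.

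Feature row_504 also had a higher level in deeper early gastrula libraries (Pearson 0.737, Spearman 0.570), as did row_717 (0.808 and 0.594) and row_719 (0.847 and 0.630). Features row_585, row_200 and row_591 had Pearson correlations with the total of 0.001, -0.069 and 0.068, and row_399 had -0.013. Feature row_591 was led by r26 (11269 CPM) and r13 (5296 CPM), with a median of 679.8 CPM, and library r26 was also the one with the most of row_200. Feature row_399 was led by r19 (9378 CPM), r18 (8669 CPM) and r13 (5704 CPM), with a median of 455.5 CPM. Set against the sum of the other 28, no early gastrula library had more than 4 features at least 4-fold higher and 3 lower (r14), although shallow libraries leave fewer features to compare (as few as 28, in r15).

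At equal depth more features were seen per library in the 20-cell embryo than in the early gastrula. The 20-cell libraries were also less alike on average. At 2000 counts a 20-cell library was estimated to show 349.0 to 396.6 features (median 379.1, n = 12) and an early gastrula library 294.2 to 355.2 (median 325.2, n = 29), with a small overlap. This number also depends on how evenly counts are spread over features. The 10 largest features took 25.7% of the counts at 20 cells and 29.1% in the early gastrula. The mean Spearman correlation of library pairs was 0.615 ± 0.051 (SD over 66 pairs) within the 20-cell embryo and 0.673 ± 0.030 (406 pairs) within the early gastrula. Between the embryos it was 0.503 ± 0.059 (348 pairs). Pairs share cells, so these SDs describe spread and no test is drawn from them. The 20-cell mean includes r8, r15 and r16, whose means with the other 20-cell libraries were 0.563, 0.571 and 0.580. In the remaining 20-cell libraries these means ran from 0.605 (r11) to 0.644 (r3). A variance-to-mean ratio over 2 was seen in 73 of 326 features at 20 cells (22.4%, median ratio 1.38) and in 42 of 264 in the early gastrula (15.9%, median ratio 1.23).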

How the data were processed

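The authors deposited a table of raw counts per feature and library, 1572 complete rows and 189 columns, with no gene identifiers. Per the submitters' processing notes the tools were HTSeq 0.5.4p3, Bowtie2 2.1.0 and CASAVA 1.8, with no roles stated. No genome build is given there. The table's unmatched columns number 0. Counts outside the 6 rows (1566 rows) were summed per embryo and scaled to CPM. Features with at least 30 counts in the higher embryo and a 4-fold ratio were called, against a floor of 3 counts per embryo, with exact conditional (Clopper-Pearson) 95% intervals. The rule was checked on simulated counts. Per-library values used thinning to 2000 counts, averaged over 5 thinnings for similarity and variance. Samples were grouped by the stage label. Titles of r17 and of 21 late gastrula libraries carry a leading digit. The former was left out and the latter were kept. No test was run, since cells of 1 embryo are not replicates. edgeR 4.0.16 (R 4.3.3) gave TMM factors alone, and the rest used Python 3.11.15, scipy 1.17.1 and pandas 2.3.3.

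Named features began with called features found in at least 50% of libraries of the higher embryo (and called by mean CPM). The 6 largest ratios each way were taken among these, and up to 4 each way among the rest. Also named were the 4 steady features of the largest counts within 1.25-fold. The 5 features of the largest variance-to-mean ratio per embryo were added, with the 3 features most like the first. Other rows were named after their values were seen. Members and lists were chosen with earlier results of these data known. Alternatives changed scaling, thresholds, libraries, depth and the 6 rows. Leaving out r8, r15 and r16, and leaving 8-cell embryo 3 out of the equal-depth pairs, were chosen after seeing the data. No row could be matched to a gene list, so no cell type marker was checked.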

Additional observations from a re-analysis of the deposited data

Results flagged for a closer look

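Library r17 of the 20-cell embryo took no part in the comparisons and holds a large signal of its own, with 42908 counts outside the 6 rows against at most 10705 in the 12 libraries used. Set against those 12 together, 5 features were at least 4-fold higher in it (row_36, row_1467, row_602, row_616 and row_479) and 17 were at least 4-fold lower. Feature row_36 held 25799 CPM in r17 and 2211 CPM in the 12 libraries, and row_1467 held 862.3 and 10.6 CPM. Its log2 ratio of late-list to early-list counts, 0.83, lay inside the range of the 12. Features row_352, row_585 and row_563 of the higher set had 4, 0 and 0 counts in it.

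The 6 rows kept out of the totals held 8.21% of all counts in the 12 used 20-cell libraries (4.85% to 15.7% each) and 7.56% in the 29 early gastrula libraries (3.26% to 25.5%).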

How the results depend on the processing

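The count of higher features was 16 as reported, 26 by TMM, 8 with a minimum of 100 counts, 60 at 2-fold, 5 at 8-fold and 8 with libraries thinned to 2000 counts. The count of lower features was 43 as reported, 80 with a minimum of 10 counts, 85 with none, 18 with 100, 130 at 2-fold, 22 at 8-fold and 25 with thinned libraries. Leaving out each library in turn gave 13 to 18 higher and 38 to 47 lower features. Under the other alternatives both counts were within 1.5 times. Of the log2 ratios of the named features, 1558 values stayed within counting error, 91 moved further, and 1 of a called feature reversed (row_1467, -0.25 with r17 kept). Those of 7 named features that were not called changed sign as well, in 16 values (row_200, row_215, row_459, row_671, row_702, row_1258 and row_1518). Most of the values counted come from leaving out 1 library at a time, so they say little about the other settings. Thinning to 2000 counts moved row_352, row_585, row_563, row_541, row_488 and row_486, among others, and not row_359, row_173 or row_1269. Median detected features at 1000 and 5000 counts were 292.4 and 483.9 at 20 cells and 247.8 and 440.2 in the early gastrula. At 5000 counts mean similarity was 0.731 within 20 cells, 0.768 within the early gastrula and 0.610 between them, and 38.4% and 28.3% of features had a variance-to-mean ratio over 2. With 2-fold lists the early gastrula median position was 1.45 and that of 20 cells 0.43. At the planned common depth of 2004 counts 3% of features were past 4-fold between the embryos (38.7% past 2-fold) and about 13 features could be considered, which is why 13.2% at 54187 counts is reported. No paired analysis was possible because the labels do not match cells between the embryos, and no test was run. Shallow libraries limit what is seen per cell: at 2209 counts a feature of under 453 CPM is expected to give less than 1 count.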

Other observations

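Some features of the lower set lay in neighbouring rows of the deposited table, a pattern noticed after the values were seen. Features row_40 to row_44, row_539 to row_541, row_829 to row_831, row_906 and row_907, and row_1566 and row_1567 were all at least 4-fold lower in the early gastrula, which makes 15 of the 43 lower features (34.9%) in 10 adjacent pairs among 193 adjacent pairs of considered rows. Of 28 considered rows next to a lower row, 15 were lower (53.6%), beside 28 of the 410 other considered rows (6.83%). The calls of row_1566 and row_1567 were lost without r15 (log2 ratios of -1.34 and -1.56). The 16 higher features formed 0 such pairs. The order of the rows is not stated in the sources used here, and whether adjacent rows share reads was not tested.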
